A study of Mus musculus with 6 samples.

Results

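The transcripts described here are those of 47 genes that mark blood and lymphatic vessel endothelium, the cell layer that lines every vessel, sorted by the vessel type they are used to recognise. They were taken by symbol, with no threshold on a measured value, from a table of 19639 mouse genes, and all 47 were found there and passed the filter on low counts that left 15287 genes for testing. They fall into 7 classes: 23 pan-endothelial genes, 4 aerocyte genes, 4 general capillary genes, 5 arterial genes, 4 venous and activated genes, 4 lymphatic genes and 3 genes shared by several vessel types.

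RNA was sequenced from lungs of RPM mice, mice bred to develop small cell lung tumours, which in this field combine loss of Rb1 and Trp53 with forced Myc expression. The shThoc1 group, 3 libraries, came from RPM mice infected with a lentivirus carrying a short hairpin against Thoc1, a subunit of the THO complex that takes part in mRNA export. The shControl group, 3 libraries, came from RPM mice infected with a control hairpin lentivirus, so the RPM alleles, the lentiviral infection and the organ were shared by both groups. The driver of recombination, the age of the animals, the share of tumour in each lung and whether each library is a separate animal were not given in the sources used here, and the p-values below measure only the spread between these libraries.

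Library totals were 15025199, 9934583 and 13923785 counts for shThoc1 replicates 1, 2 and 3, and 13706926, 12617662 and 13479053 counts for shControl replicates 1, 2 and 3. Thoc1 itself stood at 53.4, 69.5 and 61.4 CPM (counts scaled to a common library total) in shThoc1 replicates 1, 2 and 3, against 85.7, 80.2 and 85.8 CPM in shControl replicates 1, 2 and 3, so the groups did not overlap, with a log2 fold change of −0.45 (SE 0.17, adjusted p = 0.304) in edgeR's quasi-likelihood test. Sftpc, the surfactant gene that defines alveolar type 2 cells, was detected in every library, at 12597, 161 and 12337 CPM in shThoc1 replicates 1, 2 and 3, against 2982, 9364 and 4084 CPM in shControl replicates 1, 2 and 3. Replicate 2 of shThoc1 stood apart from the other 5 libraries in this and other markers, and the fit of the members is given with and without it.

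Endothelium differs along the vascular tree. In the mouse lung the alveolar capillary net is built from aerocytes, thin cells apposed to alveolar type 1 epithelium and specialised for gas exchange, and from general capillary cells, which act as progenitors and control vascular tone. Arteries, veins and lymphatic vessels carry their own receptors, connexins and adhesion molecules, while a core programme driven in part by ETS family factors such as Erg and by the SOX factors Sox7, Sox17 and Sox18 is shared by endothelial cells of all these vessels. In bulk tissue, fewer endothelial cells and less of a transcript per endothelial cell cannot be told apart.

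The promoters of 4 members are shown because their genes recur in the results below. Tek and Tie1 encode the paired receptors of the angiopoietin system. Ednrb and Apln are both aerocyte genes, and their fitted log2 fold changes had opposite signs, though both were lowest in shThoc1 replicate 2. Each stretch runs from 250 bases before to 50 bases after the RefSeq transcription start in build GRCm38.p6, 5′ to 3′ on the gene's own strand, and capitals mark the ETS core letters AGGAAG or CGGAAG and the SOX core letters AACAAT on either strand. The stretches lie at chr4:94739039-94739338 on the plus strand for Tek, at chr4:118489800-118490099 on the minus strand for Tie1, at chr14:103843652-103843951 on the minus strand for Ednrb and at chrX:48034804-48035103 on the minus strand for Apln.
Tek: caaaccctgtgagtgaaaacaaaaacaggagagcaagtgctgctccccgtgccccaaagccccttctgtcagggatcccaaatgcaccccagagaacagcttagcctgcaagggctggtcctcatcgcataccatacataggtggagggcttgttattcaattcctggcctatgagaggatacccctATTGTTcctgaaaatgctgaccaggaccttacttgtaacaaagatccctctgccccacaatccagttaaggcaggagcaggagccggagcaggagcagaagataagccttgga
Tie1: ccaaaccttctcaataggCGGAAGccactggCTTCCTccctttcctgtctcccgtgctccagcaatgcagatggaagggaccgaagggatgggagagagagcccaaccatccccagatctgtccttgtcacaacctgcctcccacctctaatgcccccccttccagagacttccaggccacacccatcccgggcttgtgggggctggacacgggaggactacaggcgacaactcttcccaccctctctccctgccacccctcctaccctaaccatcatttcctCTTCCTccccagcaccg
Ednrb: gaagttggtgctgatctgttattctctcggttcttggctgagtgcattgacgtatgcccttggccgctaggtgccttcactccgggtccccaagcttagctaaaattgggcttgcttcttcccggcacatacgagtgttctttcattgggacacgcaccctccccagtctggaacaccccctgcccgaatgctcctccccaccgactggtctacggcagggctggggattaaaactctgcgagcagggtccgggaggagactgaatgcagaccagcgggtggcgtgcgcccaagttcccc
Apln: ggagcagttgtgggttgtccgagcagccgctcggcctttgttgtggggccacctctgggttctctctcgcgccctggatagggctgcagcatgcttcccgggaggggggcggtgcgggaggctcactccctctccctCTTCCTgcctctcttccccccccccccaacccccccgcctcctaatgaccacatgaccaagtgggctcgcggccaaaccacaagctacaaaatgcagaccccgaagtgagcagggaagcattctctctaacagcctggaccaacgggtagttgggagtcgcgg
The Ednrb stretch holds none of these letters. A promoter entry was matched by symbol for 27 of the 47 members and not for 20. AGGAAG was present in 14 of the 27 member promoters (51.9%), against 35.1% of 27025 mouse promoters of the same 300-base length. CGGAAG was present in 3 of the 27 (11.1%), against 17.2% of all promoters, and AACAAT in 4 of the 27 (14.8%), against 10.9%. A promoter with either ETS core was seen for 15 of the 27 members (55.6%), against 46.4% of all promoters. These letters are short and a match is a description of sequence, not of a bound site.

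Across all 6 libraries, endothelial transcripts were higher in shThoc1 lungs by fitted value in 43 of 47 genes, with a median log2 fold change of 1.00, against 0.03 over all 15287 genes tested. Both values moved with single libraries, since without shThoc1 replicate 1 the median was 0.44 and 10 members were below 0, and without shControl replicate 2 only 1 member was below 0. None of the 47 passed an adjusted p of 0.05 in edgeR, where the share called over all genes was 0%. An unadjusted p under 0.05 was reached by 3 members (Bmx, Sele and Aqp1) and by 2473 genes in all, and the smallest adjusted p of any gene was 0.304. The 4 members with a fitted value below 0 were Emcn, Robo4, Apln and Aplnr, a share of 8.51%, against 47.9% of all genes tested. In the authors' deposited table the sign of the fold change was the same for 47 of 47 members. That table called 1 member (Bmx) higher at an adjusted p under 0.05, where 2.04% of its genes were called higher.

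The fold changes hide an opposed pattern within the shThoc1 group. Summed over the 47 genes, shThoc1 replicates 1, 2 and 3 held 16955, 1132 and 14113 CPM, against 4509.8, 6077 and 4088 CPM in shControl replicates 1, 2 and 3. Replicates 1 and 3 of shThoc1 were thus above every shControl library and replicate 2 was below every one. Gene by gene, 38 of 47 members were higher in shThoc1 replicates 1 and 3 than in every shControl library (80.9%), against 28% of all genes tested. Replicate 2 of shThoc1 held the lowest value of all 6 libraries for 42 of 47 members (89.4%), against 24.6% of all genes tested. The same library was lowest in alveolar epithelial levels and highest in T and B cell and adipocyte levels, whose values are given with the marker lists and whose part in these results was not tested. Both at once, shThoc1 replicates 1 and 3 above every shControl library and replicate 2 below every one, held for 35 of 47 members (74.5%), against 10.1% of all genes. This order was not particular to the members. It held for 8 of 10 alveolar type 1 genes, 8 of 10 alveolar type 2 genes and 20 of 30 vascular receptor and signalling genes. Among pericyte and smooth muscle genes it held for 3 of 14, a share also above the 10.1% of all genes. The members for which shThoc1 replicate 2 was not lowest were S1pr1, Bmx, Selp, Sele and Mmrn1. The groups did not overlap for 2 members (4.26%), Bmx and Sele, both higher in shThoc1, against 11.1% of all genes that were higher without overlap. With 3 libraries a group, a two-sided exact permutation test of a single gene cannot go below p = 0.1.

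**Figure D1:**
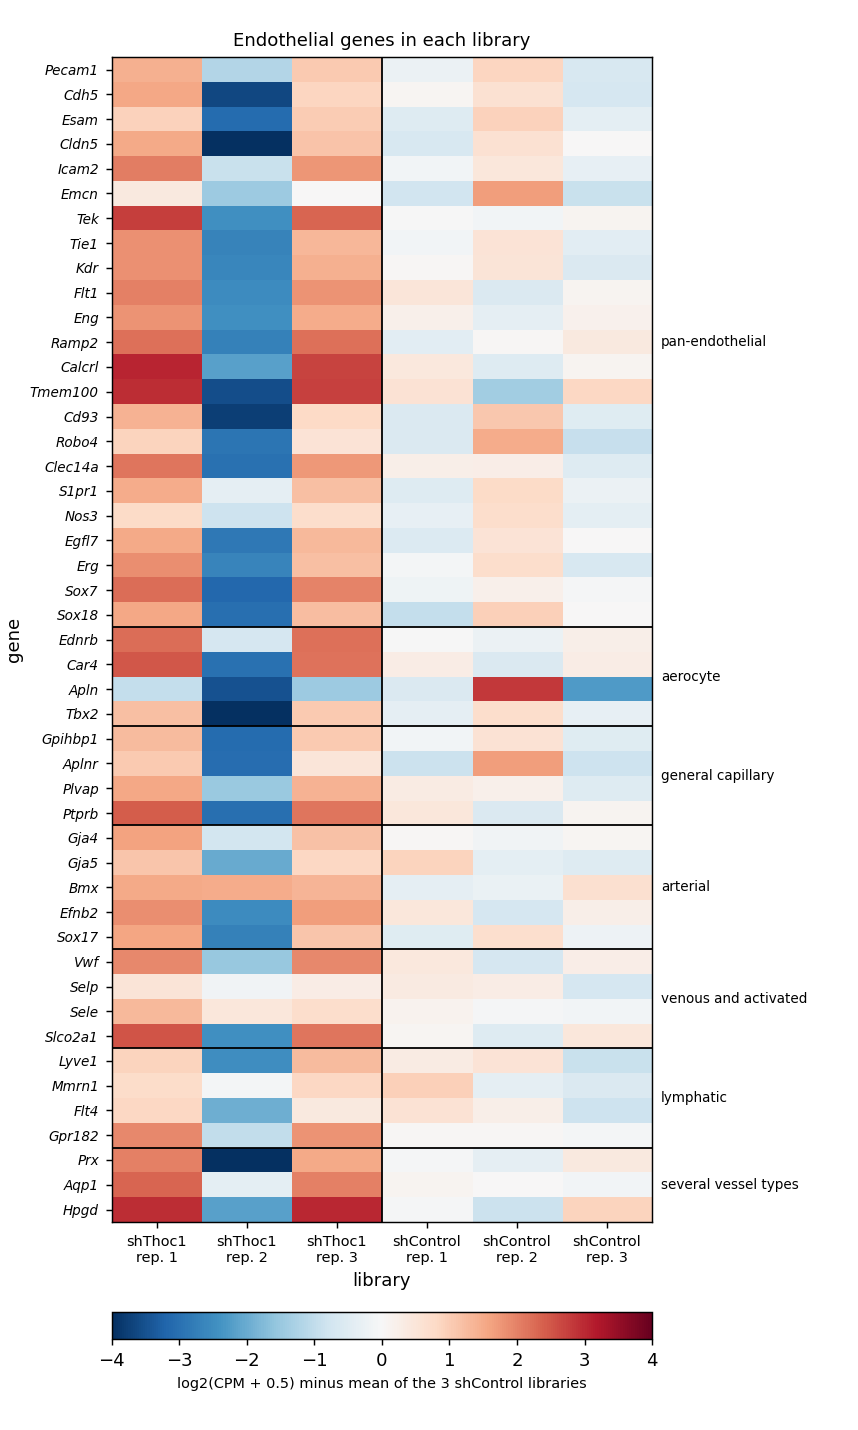
Each line is 1 of the 47 endothelial genes, grouped by vessel type, and each column 1 library, with the shThoc1 libraries left of the shControl libraries; colour gives log2(CPM + 0.5) minus the gene's mean over the shControl libraries. Replicates 1 and 3 of shThoc1 are above 0 for most genes and replicate 2 of shThoc1 is below 0 for most, with Bmx, Selp, Sele, Mmrn1 and S1pr1 the 5 genes for which it is not the lowest library.

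Among the 23 pan-endothelial genes, 21 had a fitted value above 0, with a median log2 fold change of 0.93. Their summed level was 9776, 603 and 7694 CPM in shThoc1 replicates 1, 2 and 3, against 2445, 4056 and 2319.9 CPM in shControl replicates 1, 2 and 3. Pecam1, the junctional adhesion molecule CD31, had 974, 162 and 745 CPM in shThoc1 replicates 1, 2 and 3, against 309.6, 661 and 236 CPM in shControl replicates 1, 2 and 3. Its shThoc1 replicate 2 was lowest of the 6 and shControl replicate 2 came close to shThoc1 replicate 3, so the groups overlapped, with means of 627 ± 419 CPM in shThoc1 lungs and 402 ± 227 CPM in shControl lungs (SD, n = 3 each) and a log2 fold change of 0.64 (SE 0.72, adjusted p = 0.639). Cdh5, the VE-cadherin of endothelial adherens junctions, had 685, 18.2 and 420.1 CPM in shThoc1 lungs, against 246, 351 and 146 CPM in shControl lungs. Its shThoc1 values spread over more than an order of magnitude around those of shControl, with a log2 fold change of 0.60 (SE 1.08, adjusted p = 0.774), which turned to −0.24 without shThoc1 replicate 1. Icam2, an adhesion molecule for leukocytes that endothelium carries without stimulation, had 189, 23.9 and 154 CPM in shThoc1 lungs, against 41.9, 61.3 and 35.7 CPM in shControl lungs. Replicates 1 and 3 of shThoc1 were above every shControl library for Icam2 and replicate 2 below, with a log2 fold change of 1.40 (SE 0.72, adjusted p = 0.359).

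The growth factor receptors of this class were likewise highest in shThoc1 replicates 1 and 3 and lowest in shThoc1 replicate 2. Kdr, the main signalling receptor for VEGF-A, had 397, 17.6 and 301 CPM in shThoc1 replicates 1, 2 and 3, against 115, 161 and 74.3 CPM in shControl replicates 1, 2 and 3, a log2 fold change of 1.03 (SE 0.98, adjusted p = 0.584). Flt1, the VEGF receptor that also serves as a decoy, had 282, 11.8 and 246 CPM in shThoc1 lungs, against 98.6, 46.4 and 75.2 CPM in shControl lungs, a log2 fold change of 1.29 (SE 1.00, adjusted p = 0.507). For both, replicate 2 was the low library of the shThoc1 group and the other shThoc1 libraries were above all shControl libraries. Tek, the angiopoietin receptor TIE2, had 498, 12.9 and 368 CPM in shThoc1 lungs, against 72.2, 68.3 and 79.6 CPM in shControl lungs. The shControl values of Tek lay close together, 73.4 ± 5.72 CPM (SD, n = 3), and the lower of shThoc1 replicates 1 and 3 was 4.62 times the highest of them, while the log2 fold change over all libraries was 2.00 (SE 1.09, adjusted p = 0.381). Its partner Tie1 gave a log2 fold change of 1.00 (SE 0.98, adjusted p = 0.595).

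The adrenomedullin receptor is built from the calcitonin receptor-like receptor Calcrl and the accessory protein Ramp2, and it maintains vessel integrity. Calcrl had 1394, 36.3 and 1092 CPM in shThoc1 replicates 1, 2 and 3, against 223, 116 and 178 CPM in shControl replicates 1, 2 and 3. Ramp2 had 504, 16.1 and 504 CPM in shThoc1 lungs, against 80.8, 111 and 141 CPM in shControl lungs. For both genes replicates 1 and 3 of shThoc1 were the highest libraries and replicate 2 the lowest. The lower of shThoc1 replicates 1 and 3 exceeded the highest shControl library 4.89-fold for Calcrl, the widest such gap among the 47 members. Over all libraries the log2 fold changes were 2.29 (SE 1.13, adjusted p = 0.35) for Calcrl and 1.62 (SE 1.07, adjusted p = 0.447) for Ramp2. Tmem100, a transmembrane protein induced by BMP9 and BMP10 signalling through ALK1, had 568, 5.73 and 490.2 CPM in shThoc1 lungs, against 108, 27.5 and 129 CPM in shControl lungs, a log2 fold change of 2.01 (SE 1.39, adjusted p = 0.464). Its replicate 1 of shThoc1 held 99.1 times its replicate 2, the largest such ratio among the 47 members. S1pr1, the sphingosine-1-phosphate receptor that keeps the endothelial barrier closed and is also carried by lymphocytes, had 481, 134 and 399 CPM in shThoc1 lungs, against 119, 293 and 146 CPM in shControl lungs. Its shThoc1 replicate 2 lay above shControl replicate 1, unlike the other 22 pan-endothelial genes, for which it was the lowest of the 6 libraries, and its log2 fold change was 0.86 (SE 0.57, adjusted p = 0.446).

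Of the other pan-endothelial genes, 10 had fitted values above 0 and shared the low shThoc1 replicate 2. The ETS factor Erg had a log2 fold change of 0.93 (SE 1.00), Sox7 of 1.56 (SE 1.13) and Sox18 of 0.65 (SE 1.07). The TGF-beta family co-receptor Eng had 1.09 (SE 0.93), the C-type lectin Clec14a 1.36 (SE 1.08), the secreted factor Egfl7 0.80 (SE 0.97), the tight junction claudin Cldn5 0.68 (SE 1.16), the junctional Esam 0.27 (SE 0.97), the lectin-domain receptor Cd93 0.34 (SE 1.14) and the nitric oxide synthase Nos3 0.29 (SE 0.54). None of these 10 passed an adjusted p of 0.05 in edgeR, and the sign turned without shThoc1 replicate 1 for Esam, at −0.12, and Cd93, at −0.44, and without shThoc1 replicate 3 for Esam, at −0.19. Emcn, a sialomucin of capillaries and veins, and Robo4, an endothelial receptor of the roundabout family, had the class's only fitted values below 0, −0.68 (SE 0.85, adjusted p = 0.675) for Emcn and −0.21 (SE 1.05, adjusted p = 0.918) for Robo4. Emcn had 151 CPM in shControl replicate 2, against 27.0 and 24.8 CPM in shControl replicates 1 and 3, and Robo4 had 136 CPM, against 32.0 and 25.3 CPM. Without shControl replicate 2 the log2 fold changes were 0.67 for Emcn and 0.91 for Robo4, the opposite sign.

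Of the 4 aerocyte genes, 3 had fitted values above 0 and Apln had one below, with a class median of 1.10. Ednrb, the endothelin B receptor that clears and senses endothelin, had 105, 13.4 and 103 CPM in shThoc1 replicates 1, 2 and 3, against 21.7, 18.7 and 25.8 CPM in shControl replicates 1, 2 and 3. Its mean was 74.1 ± 52.5 CPM in shThoc1 lungs, against 22.1 ± 3.54 CPM in shControl lungs (SD, n = 3 each), with a log2 fold change of 1.75 (SE 0.73, adjusted p = 0.311). Replicates 1 and 3 of shThoc1 lay close together above all shControl libraries, and replicate 2 was lowest of the 6. Car4, the membrane-anchored carbonic anhydrase of alveolar capillaries, had 238, 4.94 and 193 CPM in shThoc1 lungs, against 52.2, 28.1 and 51.8 CPM in shControl lungs. Its means were 146 ± 124 CPM in shThoc1 lungs and 44.0 ± 13.8 CPM in shControl lungs (SD, n = 3 each), with a log2 fold change of 1.73 (SE 1.15, adjusted p = 0.448). As for Ednrb, shThoc1 replicates 1 and 3 were the highest libraries of Car4 and shThoc1 replicate 2 the lowest. Tbx2, a T-box transcription factor also used in lung mesenchyme, had 184, 3.26 and 167 CPM in shThoc1 lungs, against 61.9, 129 and 63.3 CPM in shControl lungs. Replicates 1 and 3 of shThoc1 again stood above the shControl libraries, by a narrower gap than for Ednrb or Car4, and the log2 fold change was 0.48 (SE 1.16, adjusted p = 0.833), which was −0.059 without shThoc1 replicate 1.

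Apln, the apelin peptide that aerocytes and sprouting tip cells secrete, departed from the other 3 aerocyte genes. It had 15.9, 2.37 and 11.3 CPM in shThoc1 replicates 1, 2 and 3, against 21.1, 227 and 6.15 CPM in shControl replicates 1, 2 and 3. Replicate 2 of shControl held 2850 of its counts and 16.6 times the mean of the other shControl libraries, at 302 and 84 counts in replicates 1 and 3. The log2 fold change was −3.10 (SE 1.44, adjusted p = 0.332) with all libraries, and without shControl replicate 2 it was −0.50.

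**Figure D2:**
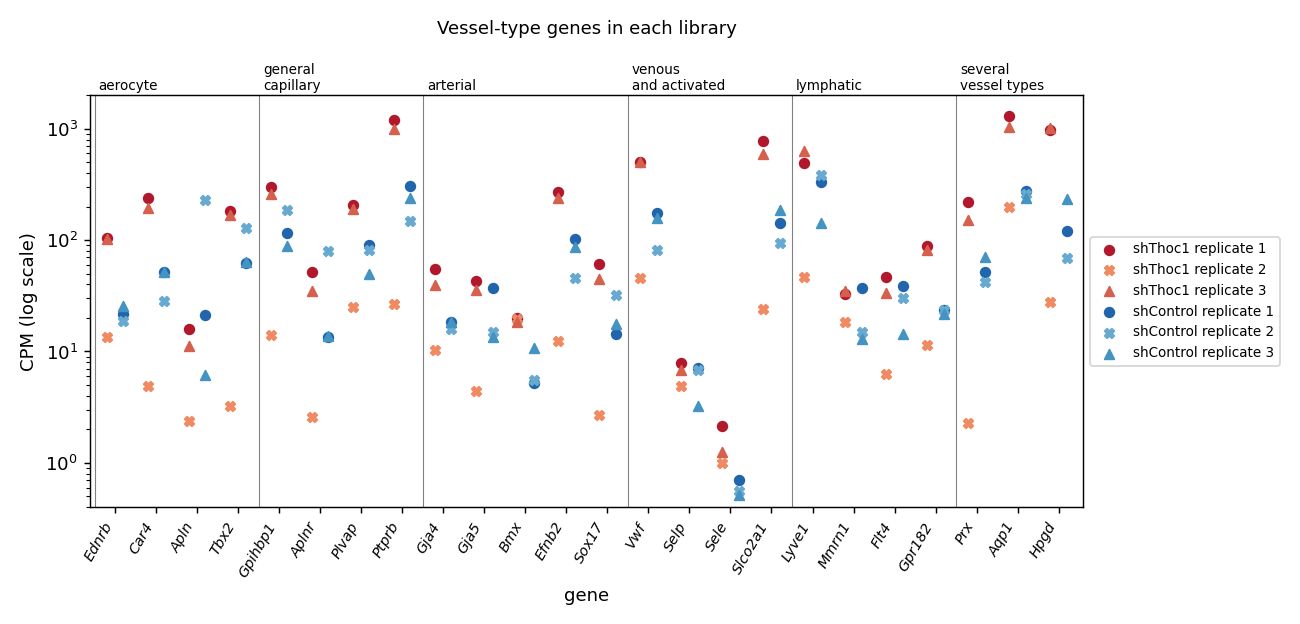
CPM on a log axis of each vessel-type gene in each library, 1 point per library, with the shThoc1 libraries left of the shControl libraries for each gene; the pale red cross, replicate 2 of shThoc1, is the lowest point for most genes. Apln shows 1 shControl library at 227 CPM, far above the others, and Bmx shows 3 shThoc1 points between 18.3 and 20.2 CPM above all shControl points.

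General capillary genes gave a class median of 0.74. Gpihbp1, which anchors lipoprotein lipase on the capillary surface, had 300.1, 14.1 and 259 CPM in shThoc1 replicates 1, 2 and 3, against 116, 185 and 89.0 CPM in shControl replicates 1, 2 and 3, a log2 fold change of 0.56 (SE 0.97, adjusted p = 0.764). Plvap, the protein of the diaphragms of fenestrae and caveolae, had 207, 25.0 and 189 CPM in shThoc1 lungs, against 89.8, 81.3 and 49.5 CPM in shControl lungs, a log2 fold change of 0.93 (SE 0.74, adjusted p = 0.515). Replicates 1 and 3 of shThoc1 exceeded every shControl library for both genes, and replicate 2 lay under every one. Ptprb, the vascular endothelial phosphatase VE-PTP that acts on TIE2, had 1190.3, 26.8 and 991 CPM in shThoc1 lungs, against 306, 149.6 and 239.6 CPM in shControl lungs, a log2 fold change of 1.67 (SE 1.15, adjusted p = 0.461). Its shThoc1 replicates 1 and 3 were likewise the highest libraries and replicate 2 the lowest. Aplnr, the apelin receptor, had 52.1, 2.57 and 34.6 CPM in shThoc1 lungs, against 13.4, 80.1 and 13.7 CPM in shControl lungs. Like its ligand Apln it was highest in shControl replicate 2, at 5.91 times the mean of the other shControl libraries, and its log2 fold change was −0.26 (SE 1.15, adjusted p = 0.907) with that library and 1.08 without it.

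Arterial genes were above 0 in 5 of 5 fitted values, with a median of 1.00. Bmx, a cytoplasmic tyrosine kinase of arterial endothelium that myeloid cells also use, had 20.2, 19.8 and 18.3 CPM in shThoc1 replicates 1, 2 and 3, against 5.18, 5.58 and 10.8 CPM in shControl replicates 1, 2 and 3. The groups did not overlap and the shThoc1 mean was 19.4 ± 0.988 CPM, against 7.17 ± 3.12 CPM in shControl (SD, n = 3 each). Its log2 fold change was 1.43 (SE 0.35, adjusted p = 0.304) in edgeR, whereas the authors' deposited table gives 1.41 with an adjusted p of 0.0142. Among the 47 members it was the only one called by DESeq2 in all 6 libraries, at an adjusted p of 0.0129, where 2.41% of all genes with an adjusted p were called higher. Replicate 2 of shThoc1, low for the other 4 arterial genes, had a Bmx value between those of replicates 1 and 3. The gap junction protein Gja4, connexin 37, had 54.9, 10.4 and 39.9 CPM in shThoc1 lungs, against 18.2, 16.01 and 18.45 CPM in shControl lungs, a log2 fold change of 1.00 (SE 0.57, adjusted p = 0.396). Gja5, connexin 40, had 42.9, 4.44 and 35.6 CPM in shThoc1 lungs, against 36.8, 15.0 and 13.6 CPM in shControl lungs, a log2 fold change of 0.34 (SE 0.83, adjusted p = 0.831), which was −0.16 without shThoc1 replicate 1. Gja4 was highest in shThoc1 replicates 1 and 3 and lowest in replicate 2, while Gja5 in shControl replicate 1 lay between shThoc1 replicates 1 and 3. Efnb2, the ephrin that marks arterial identity, had 272, 12.4 and 237 CPM in shThoc1 lungs, against 102, 46.1 and 86.8 CPM in shControl lungs, a log2 fold change of 1.16 (SE 0.99, adjusted p = 0.543). Sox17, the SOX factor most tied to arterial fate, had 60.5, 2.67 and 44.5 CPM in shThoc1 lungs, against 14.3, 32.4 and 17.6 CPM in shControl lungs, a log2 fold change of 0.75 (SE 0.98, adjusted p = 0.688). For Efnb2 and Sox17 replicates 1 and 3 of shThoc1 were above every shControl library and replicate 2 below.

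Venous and activated genes had a median of 1.32, with 4 of 4 fitted values above 0. Vwf, the von Willebrand factor stored in Weibel-Palade bodies of larger vessels and also made by megakaryocytes, had 498, 45.5 and 498 CPM in shThoc1 replicates 1, 2 and 3, against 175, 81.6 and 158 CPM in shControl replicates 1, 2 and 3, a log2 fold change of 1.33 (SE 0.85, adjusted p = 0.433). Slco2a1, the prostaglandin transporter, had 779, 24.2 and 598 CPM in shThoc1 lungs, against 142, 93.8 and 187 CPM in shControl lungs, a log2 fold change of 1.73 (SE 1.07, adjusted p = 0.421). Both followed the common order, with shThoc1 replicate 2 lowest. Selp, the P-selectin of venules and platelets, had 7.92, 4.94 and 6.84 CPM in shThoc1 lungs, against 7.14, 6.85 and 3.22 CPM in shControl lungs, a log2 fold change of 0.20 (SE 0.43, adjusted p = 0.814), and the groups overlapped. Without shControl replicate 3 it was −0.091. Sele, the cytokine-induced E-selectin, had 31, 10 and 17 counts in shThoc1 lungs, against 10, 7 and 7 counts in shControl lungs, or 2.15, 0.988 and 1.26 CPM in shThoc1 lungs, against 0.700, 0.558 and 0.513 CPM in shControl lungs. Its groups did not overlap in CPM at this low depth, and the log2 fold change was 1.31 (SE 0.47, adjusted p = 0.304). Both selectins were among the 5 members for which shThoc1 replicate 2 was not the lowest library.

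The 4 lymphatic genes had the lowest class median with all 6 libraries, 0.42. Lyve1, a hyaluronan receptor that some macrophages also carry, had 491, 46.5 and 627 CPM in shThoc1 replicates 1, 2 and 3, against 331, 386 and 143 CPM in shControl replicates 1, 2 and 3, a log2 fold change of 0.44 (SE 0.89, adjusted p = 0.799), which was −0.13 without shThoc1 replicate 3. Flt4, the VEGF-C receptor, had 46.4, 6.32 and 33.7 CPM in shThoc1 lungs, against 38.7, 30.5 and 14.2 CPM in shControl lungs, a log2 fold change of 0.05 (SE 0.73, adjusted p = 0.972). The values of Flt4 overlapped throughout, and its sign turned with the scaling, to −0.027 where library totals were left unscaled, and with the libraries, to −0.51 without shThoc1 replicate 1. Mmrn1, multimerin 1 of lymphatic endothelium and platelets, had 32.6, 18.3 and 34.9 CPM in shThoc1 lungs, against 37.4, 14.8 and 12.8 CPM in shControl lungs, a log2 fold change of 0.40 (SE 0.50, adjusted p = 0.673). Gpr182, an atypical chemokine receptor of lymphatic and some capillary endothelium, had 88.3, 11.5 and 80.8 CPM in shThoc1 lungs, against 23.7, 23.6 and 21.5 CPM in shControl lungs. The shControl values of Gpr182 were tight, 22.9 ± 1.21 CPM, against 60.2 ± 42.4 CPM in shThoc1 lungs (SD, n = 3 each), with a log2 fold change of 1.39 (SE 0.70, adjusted p = 0.355).

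Genes of several vessel types had the highest class median with all 6 libraries, 1.71 over 3 genes. Aqp1, the water channel of capillary endothelium that red cells also contain, had 1293, 198 and 1039 CPM in shThoc1 replicates 1, 2 and 3, against 278, 260.2 and 237 CPM in shControl replicates 1, 2 and 3. Its log2 fold change was 1.71 (SE 0.66, adjusted p = 0.304), with an unadjusted p of 0.0404. Replicate 2 of shThoc1 was the lowest library, and the lowest shControl value of Aqp1 was 1.19 times it. Hpgd, the enzyme that inactivates prostaglandins taken up by transporters such as Slco2a1, had 978, 27.6 and 1023 CPM in shThoc1 lungs, against 121, 68.5 and 234 CPM in shControl lungs, a log2 fold change of 2.26 (SE 1.20, adjusted p = 0.371). Prx, periaxin, found in lung capillary endothelium, had 219, 2.27 and 152 CPM in shThoc1 lungs, against 51.3, 41.9 and 70.6 CPM in shControl lungs, a log2 fold change of 1.19 (SE 1.23, adjusted p = 0.616). Both had shThoc1 replicate 2 at the bottom, with a lowest shControl value 2.49 times it for Hpgd and 18.4 times it for Prx.

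Vessel types were then set beside each other within each library, as the median over a class of log2(CPM + 0.5) minus the gene's shControl mean. For pan-endothelial genes this shift was 1.80, −2.66 and 1.30 in shThoc1 replicates 1, 2 and 3, against −0.17, 0.56 and −0.33 in shControl replicates 1, 2 and 3. For aerocyte genes it was 1.72, −3.23 and 1.62 in shThoc1, against −0.19, 0.23 and −0.05 in shControl. For general capillary genes it was 1.40, −3.03 and 1.23 in shThoc1, against 0.12, 0.38 and −0.50 in shControl. In both capillary classes, as in the pan-endothelial genes, shThoc1 replicates 1 and 3 were the highest libraries and replicate 2 the lowest. For arterial genes the shift was 1.56, −2.03 and 1.16 in shThoc1, against 0.05, −0.26 and 0.07 in shControl. For venous and activated genes it was 1.60, −0.82 and 1.31 in shThoc1, against 0.25, −0.28 and 0.08 in shControl. For lymphatic genes it was 0.87, −1.45 and 1.05 in shThoc1, against 0.46, 0.14 and −0.70 in shControl. In shThoc1 replicate 2 the class medians hide members that differ widely. Among venous and activated genes Vwf stood at −1.52 and Slco2a1 at −2.46 there, while the scarce selectins stood at −0.13 for Selp and 0.45 for Sele, so the class median lies between Vwf and Selp. Among aerocyte genes the shift in that library was −0.68 for Ednrb and −4.41 for Tbx2, and among arterial genes it was 1.47 for Bmx and −2.70 for Sox17. No order of vessel types is read from these medians. For genes of several vessel types the shift was 2.32, −2.16 and 2.01 in shThoc1, against −0.04, −0.34 and 0.40 in shControl.

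**Figure D3:**
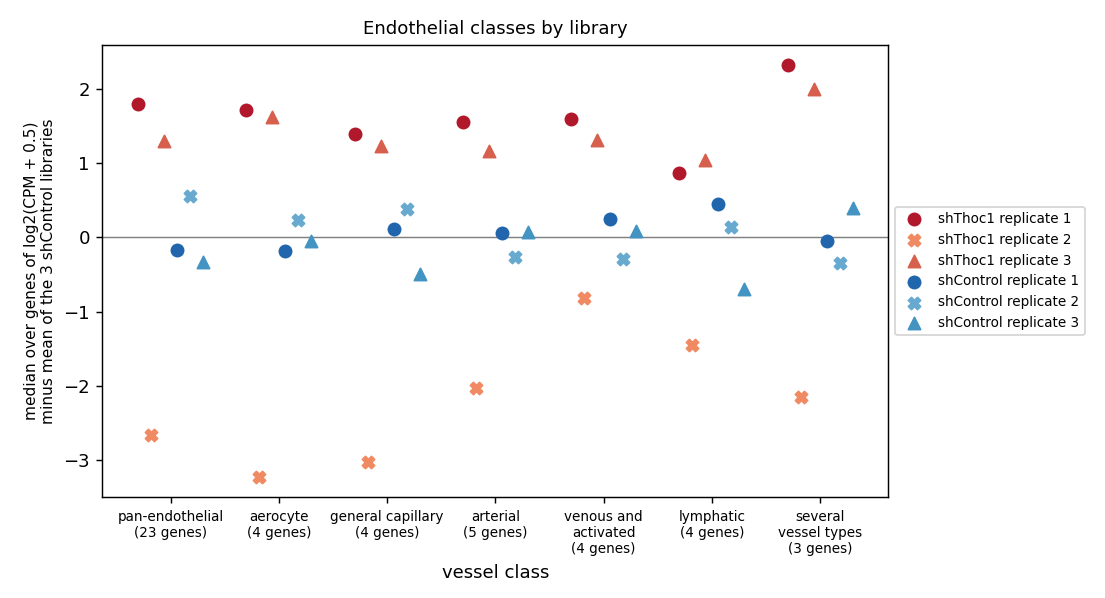
Median shift from the shControl mean, in log2(CPM + 0.5), of each vessel class in each library, 1 point per library with the shThoc1 libraries left of the shControl libraries. Every class has replicates 1 and 3 of shThoc1 above 0 and replicate 2 of shThoc1 below 0.

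Without shThoc1 replicate 2, a choice that leaves 2 shThoc1 libraries, the median log2 fold change of the 47 members was 1.37. That library is the lowest for 42 of the 47 members, so leaving it out raises their fold changes and narrows their spread by construction, and the calls below describe the other 5 libraries without supporting a difference between the groups. In that fit 11 members (23.4%) passed an adjusted p of 0.05, against 0.716% of 15647 genes called higher. Those members were Icam2, Tek, Eng, Ramp2, Calcrl, Sox7, Ednrb, Car4, Slco2a1, Gpr182 and Aqp1, and their adjusted p-values lay between 0.0488 and 0.0497, just under the threshold. Calcrl had a log2 fold change of 2.79 (SE 0.32, adjusted p = 0.0488), Tek of 2.49 (SE 0.20, adjusted p = 0.0488) and Slco2a1 of 2.22 (SE 0.33, adjusted p = 0.0488). Among the aerocyte genes Ednrb had 2.18 (SE 0.19, adjusted p = 0.0488) and Car4 2.23 (SE 0.31, adjusted p = 0.0488). Gpr182 had 1.82 (SE 0.15, adjusted p = 0.0488) and Aqp1 2.11 (SE 0.20, adjusted p = 0.0488). Cdh5, Pecam1 and Gpihbp1 did not pass, with log2 fold changes of 1.09 (SE 0.42, adjusted p = 0.145), 1.03 (SE 0.48, adjusted p = 0.196) and 1.04 (SE 0.33, adjusted p = 0.106). Bmx had 1.35 (SE 0.39, adjusted p = 0.0889) in that fit and did not pass. With voom quality weights, which give libraries that stand apart less weight, 27 members (57.4%) were called higher, where 20.4% of all genes were. That setting called 6817 of 15287 genes in either direction, where edgeR with all 6 libraries called 0. As far as shThoc1 replicate 2 is weighted down, the limit given for leaving it out holds for these calls too.

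**Figure D4:**
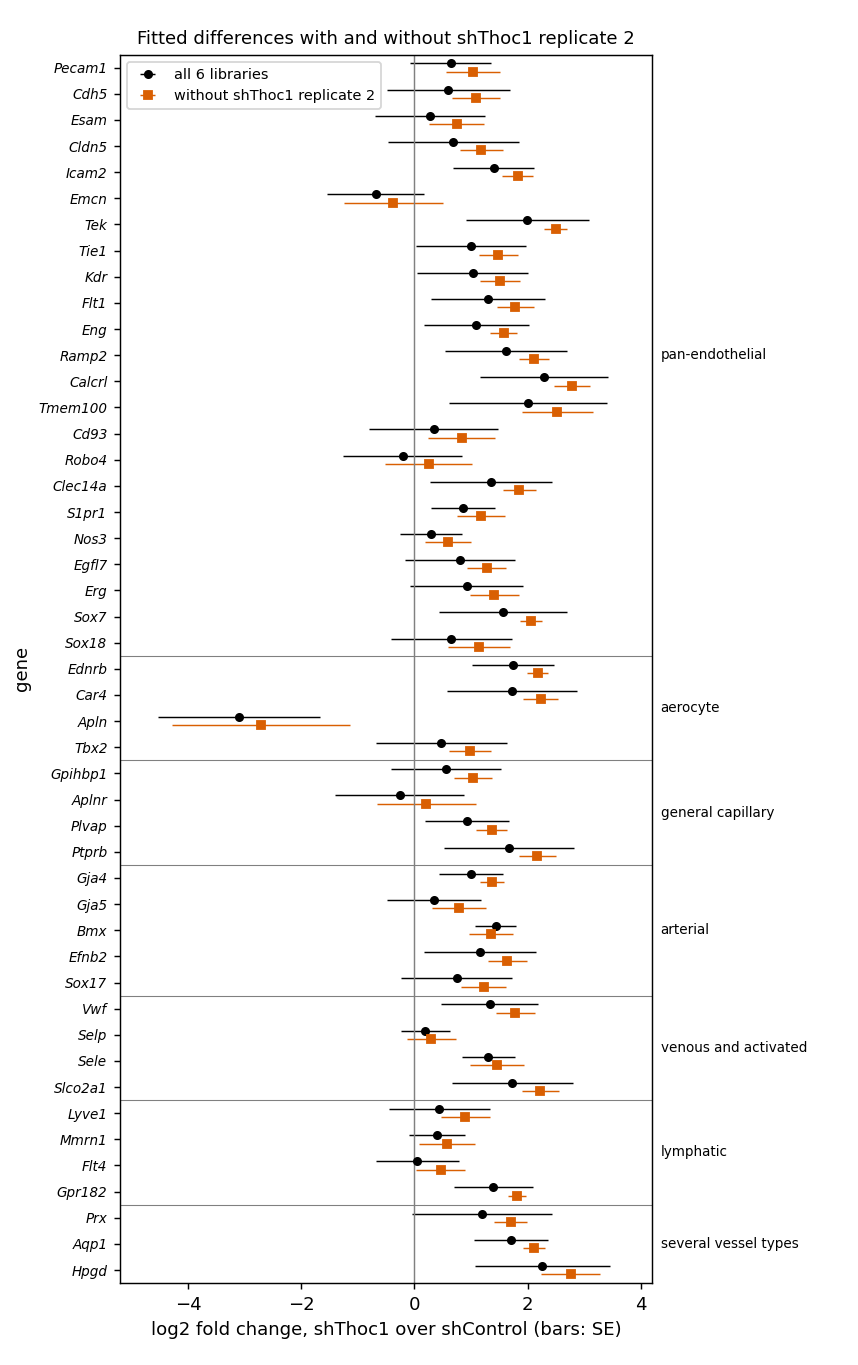
Log2 fold change with its standard error for each member by vessel class, shThoc1 over shControl, from all 6 libraries and from the 5 libraries without shThoc1 replicate 2. Points without that library lie further above 0 with shorter error bars for most genes, with Apln and Emcn below 0 in both fits.

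Replicate 2 of shControl also stood apart from the other shControl libraries in the marker lists, with a neuroendocrine level of 2.69, against 5.68 and 5.99 in shControl replicates 1 and 3, and an alveolar type 1 level of 7.95, against 7.11 and 6.93, each as a median log2(CPM + 0.5). Among the members it was not the highest of all 6 libraries, or the lowest shControl library, more often than among all genes. The count of highest values could not include the 38 members for which shThoc1 replicates 1 and 3 were above every shControl library. By summed CPM it was the highest shControl library for pan-endothelial, aerocyte and lymphatic genes. By the same measure it was the lowest for arterial, venous and activated and several-vessel-type genes. The lymphatic and aerocyte sums came largely from single genes. In this library Lyve1 held 386 of the 454 lymphatic CPM and Apln 227 of the 403 aerocyte CPM. Replicate 2 of shControl was below shControl replicate 1 for Mmrn1 and Flt4 and close to it for Gpr182. It was the lowest control for Ednrb and Car4 and the highest for Tbx2. It held the highest value of all 6 libraries for 4 members (8.51%), Emcn, Robo4, Apln and Aplnr, against 13.1% of all genes tested. It held the lowest shControl value for 14 members (29.8%), against 41% of all genes. Compared with the mean of the other shControl libraries it held 5.83 times as much Emcn and 4.76 times as much Robo4. It held 0.232 times as much Tmem100 and 0.386 times as much Hpgd, and both of these genes were lowest there among the controls.

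Vascular ligands made by endothelium and its neighbours showed no common sign of the fitted log2 fold change. Of 18 listed, 17 were in the table and 15 were tested, 7 above 0 and 8 below 0, with a median of −0.09, and none passed the edgeR test. Pgf, placental growth factor, which binds Flt1, had 7.16, 6.62 and 7.21 CPM in shThoc1 replicates 1, 2 and 3, against 9.17, 71.1 and 7.40 CPM in shControl replicates 1, 2 and 3, a log2 fold change of −2.06 (SE 0.93, adjusted p = 0.325). Adm, adrenomedullin, the ligand of the receptor formed by Calcrl and Ramp2, had 3.20, 4.54 and 3.19 CPM in shThoc1 lungs, against 11.9, 28.9 and 3.30 CPM in shControl lungs, a log2 fold change of −2.01 (SE 0.77, adjusted p = 0.304). Both were highest in shControl replicate 2, the highest library for 6 of the 15 tested ligands, against 13.1% of all genes tested. Replicate 2 of shThoc1 was the lowest library for 12 of the 15, against 24.6% of all genes tested. Among receptors and signalling genes of the endothelium, 25 of 30 were above 0 and 5 below 0, with a median of 0.77. Nrp2, a co-receptor for VEGF-C and class 3 semaphorins, had 70.5, 37.4 and 76.8 CPM in shThoc1 lungs, against 177, 143 and 135 CPM in shControl lungs. Its groups did not overlap, and its log2 fold change was −1.30 (SE 0.31, adjusted p = 0.304), while the authors' deposited table gives −1.32 with an adjusted p of 0.0130. Ets1, an ETS family factor that lymphocytes also express strongly, had 158, 207 and 91.1 CPM in shThoc1 lungs, against 65.8, 81.4 and 38.4 CPM in shControl lungs, a log2 fold change of 1.29 (SE 0.40, adjusted p = 0.304).

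Markers of neighbouring and circulating cells were read in the same libraries, each list as its median log2(CPM + 0.5). For each list the 2 genes of smallest p are named, and none of the genes of these lists passed the edgeR test with all 6 libraries. Alveolar type 1 genes, 10 of 10 above 0 with a median log2 fold change of 0.59, had levels of 8.83, 3.82 and 8.70 in shThoc1 replicates 1, 2 and 3, against 7.11, 7.95 and 6.93 in shControl replicates 1, 2 and 3. The log2 fold changes of its Clic5 and Aqp5 were 1.04 (SE 1.02) and 0.53 (SE 0.62). Alveolar type 2 genes, 10 of 10 above 0 with a median of 0.46, had 9.31, 6.17 and 9.31 in shThoc1, against 8.24, 9.10 and 7.78 in shControl. Both kinds of alveolar epithelium were lowest in shThoc1 replicate 2, as were the pan-endothelial genes, with 8.63, 4.10 and 8.24 in shThoc1, against 6.63, 6.87 and 6.66 in shControl. Lyz1, listed as an alveolar type 2 gene, went apart from that order, with 158, 134 and 132 CPM in shThoc1, against 48.6, 48.8 and 36.7 CPM in shControl, a log2 fold change of 1.66 (SE 0.19, adjusted p = 0.304), and Etv5 had 0.82 (SE 0.92). In the authors' deposited table Lyz1 has an adjusted p of 2.72e-09. Pericyte and smooth muscle genes, 6 of 14 above 0 and 8 below with a median of −0.07, had 5.53, 4.98 and 5.17 in shThoc1, against 5.52, 5.38 and 5.39 in shControl, with 0.75 (SE 0.31) for Myh11 and 1.27 (SE 0.67) for Cnn1. The median level of these mural cell genes spanned a narrower range over the 6 libraries than the pan-endothelial level did. Single mural genes varied more than that median. Rgs5 ran from 7.16 CPM in shThoc1 replicate 1 to 547 CPM in shControl replicate 3. Cox4i2 ran from 0.296 CPM in shThoc1 replicate 2 to 35.0 CPM in shThoc1 replicate 1, while Myh11 stayed between 64.8 and 190 CPM. Mesothelial genes, 6 of 7 above 0 with a median of 0.97, had 6.26, 5.14 and 6.05 in shThoc1, against 4.19, 6.15 and 4.21 in shControl. Its Upk1b had a log2 fold change of 0.97 (SE 0.44) and its Msln of 1.504 (SE 0.92).

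T and B cell genes, 8 of 8 above 0 with a median log2 fold change of 2.95, had levels of 3.24, 7.28 and 3.73 in shThoc1 replicates 1, 2 and 3, against 3.46, 2.87 and 2.16 in shControl replicates 1, 2 and 3. Adipocyte genes, 5 of 5 tested above 0 with a median of 3.09, had 0.47, 7.03 and 1.01 in shThoc1, against −0.04, 0.08 and 2.99 in shControl. Summed, the 8 T and B cell genes held 91.3, 1219 and 117 CPM in shThoc1, against 85.4, 63.0 and 40.9 CPM in shControl. Summed, the 10 adipocyte genes held 122, 2883 and 102 CPM in shThoc1, against 73.3, 62.5 and 216 CPM in shControl. Replicate 2 of shThoc1 was highest in both lists while lowest in pan-endothelial and alveolar levels. The log2 fold changes were 2.91 (SE 0.91) for Cd3g, 3.27 (SE 1.09) for Cd5, 1.07 (SE 0.26) for Lipe and 1.70 (SE 0.47) for Adrb3. Lipe, with 67.4, 58.7 and 43.8 CPM in shThoc1 replicates 1, 2 and 3, was not highest in replicate 2. Adrb3 had 5.00, 7.61 and 5.13 CPM there, a far smaller rise than that of Cfd, with 1.60, 582 and 3.05 CPM. Of the adipocyte genes Lep was at 0 in shThoc1 replicate 1 and shControl replicate 1, and Adipoq in shControl replicate 2. Neuroendocrine genes, 10 of 10 below 0 with a median of −2.66, had −0.14, 3.96 and 0.40 in shThoc1, against 5.68, 2.69 and 5.99 in shControl. Genes of dividing cells, 8 of 8 below 0 with a median of −2.21, had 2.06, 5.81 and 3.20 in shThoc1, against 7.34, 6.00 and 7.17 in shControl. The summed levels were 22.2, 287 and 24.2 CPM in shThoc1, against 747, 99.97 and 774 CPM in shControl for neuroendocrine genes, and 52.6, 625 and 112 CPM in shThoc1, against 1327, 635 and 1251 CPM in shControl for dividing cells. Both lists were lowest in shThoc1 replicates 1 and 3, the libraries with the highest endothelial levels. Ncam1 had −3.93 (SE 1.17), Resp18 −2.44 (SE 0.80), Aurkb −2.501 (SE 0.75) and Plk1 −2.05 (SE 0.75). The part of these cells in the endothelial values was not tested.

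**Figure D5:**
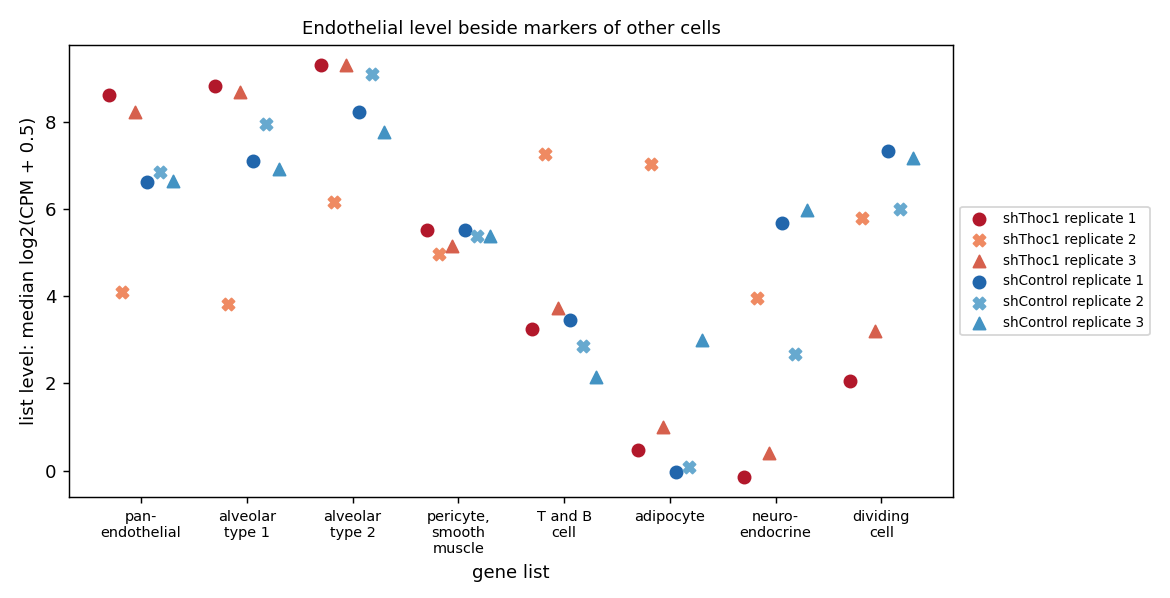
Median log2(CPM + 0.5) of each marker list in each library, 1 point per library with the shThoc1 libraries left of the shControl libraries. Replicate 2 of shThoc1 is lowest for pan-endothelial and alveolar genes and highest for T and B cell and adipocyte genes, while neuroendocrine and dividing cell genes are lowest in shThoc1 replicates 1 and 3.

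Blood and other cells share some of the members, so their lists are given beside them. Red cell genes, 5 of 5 tested above 0 with a median log2 fold change of 2.03, had levels of 5.49, 2.60 and 3.66 in shThoc1 replicates 1, 2 and 3, against 1.94, 2.44 and 1.79 in shControl replicates 1, 2 and 3, beside which Aqp1 stands. Platelet genes, 6 of 6 tested above 0 with a median of 1.12, had 1.53, 0.19 and 1.19 in shThoc1, against 0.38, 0.58 and 0.51 in shControl, beside which Vwf, Selp and Mmrn1 stand. Macrophage genes, 4 of 8 above 0 with a median of −0.06, had 4.90, 5.42 and 5.15 in shThoc1, against 5.99, 5.89 and 5.27 in shControl, beside which Lyve1 stands. Cardiac muscle genes, 6 of 7 tested above 0 with a median of 0.59, had 5.48, 4.90 and 4.77 in shThoc1, against 3.27, 1.75 and 5.98 in shControl. In these lists the log2 fold changes were 3.08 (SE 0.92) for Hbb-bt and 2.03 (SE 0.72) for Hba-a2, whose counts are uncertain because each has a near-identical copy, Hbb-bs and Hba-a1, 1.40 (SE 0.37) for Itga2b and 1.89 (SE 0.71) for Ppbp. They were 0.67 (SE 0.23) for Csf1r, 1.42 (SE 0.57) for Siglecf, 0.71 (SE 0.77) for Actc1 and −0.61 (SE 0.73) for Ryr2. The part of red cells, platelets, macrophages and heart muscle in the values of the members was not tested.

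Between genes, levels were compared per length, as the median over the 6 libraries of CPM per kilobase of exon. The highest medians were 137 for Egfl7, 124 for Lyve1, 120.1 for Cldn5 and 117 CPM per kilobase for Pecam1, but the leading gene differed by library. Hpgd led in shThoc1 replicates 1 and 3, at 581 and 608 CPM per kilobase, and in shControl replicate 3, at 139. Aqp1 led in shThoc1 replicate 2, at 75.5, Lyve1 in shControl replicate 1, at 114, and Egfl7 in shControl replicate 2, at 163 CPM per kilobase. The lowest medians were Sele at 0.290, Selp at 1.99, Nos3 at 3.91 and Apln at 4.32 CPM per kilobase. Tek stood at 16.1 and its phosphatase Ptprb at 21.2, while Ednrb stood at 5.57 and Car4 at 41.4 CPM per kilobase. Gene spans from start to end of 4 members overlap another listed gene, Eng with Fpgs, Nos3 with Atg9b, Plvap with Gtpbp3 and Selp with Gm16548. Exons and strand were not compared, so whether their counts are affected is not known.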

How the data were processed

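RNA sequencing libraries of RPM mouse lung were used, 3 shThoc1 and 3 shControl. An RNeasy kit served for RNA extraction and a NEBNext Ultra kit for library preparation, per the labels' protocols. Raw counts per gene were deposited by the authors in 1 table, and the genome build was GRCm39 per the submitters' processing notes, with aligner, counting tool and use of strand not given in the sources used here. The same deposited table holds the authors' mean normalized count (a signal), log2 fold change with its error, test statistic (a score) and p-value with its adjusted value, per the file headers. The counts were tested across all genes with edgeR 4.0.16 in R 4.3.3 (filterByExpr, TMM scaling, robust quasi-likelihood test, Benjamini-Hochberg adjustment, threshold 0.05). Of 19639 genes listed, 15287 were tested and 4352 were not. CPM used TMM-scaled totals, and class levels used log2(CPM + 0.5). DESeq2 1.42.0 and limma 3.58.1 (voom with quality weights) were alternatives, with no filter, no scaling, libraries left out in turn and shThoc1 replicates 2 and 3 summed. The fits were also run on simulated counts with changes of known size, and the outcome is not given here. In those counts no library was made to stand apart as shThoc1 replicate 2 did. Replicate numbers follow accession order and carry no pairing. For shThoc1 replicates 2 and 3 the first number in the title is the same, and whether they share an animal is not stated. No pair of libraries agreed within sampling noise, with a smallest chi-square per degree of freedom of 20.4. The members and lists were chosen with earlier results of these data known. Values in every library are given for all members of the vessel-type classes, for Pecam1, Cdh5, Kdr and Flt1, and for the 6 other pan-endothelial members with the smallest edgeR p. For each other list the counts and median are given, with the 2 genes of smallest p. Promoters were read from RefSeq (GRCm38.p6) and exon lengths from GENCODE M21 (GRCm38), both for names and sequence features only. Counts of the members in the shallowest library, shThoc1 replicate 2, ran from 10 to 2007.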

Additional observations from a re-analysis of the deposited data

How the results depend on the processing

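No paired analysis was possible because the numbers in the sample titles are shared by fewer than 2 pairs between the groups. The count of 0 members passing the edgeR test became 1 with DESeq2 (Bmx) and 27 with voom quality weights, where 20.4% of all genes were called higher, and it ranged from 0 to 11 with 1 library left out, the 11 without shThoc1 replicate 2. The 4 members below 0 became 1 with voom quality weights and ranged from 1 to 10 with 1 library left out, 1 without shControl replicate 2 and 10 without shThoc1 replicate 1. The median of all members ranged from 0.44 without shThoc1 replicate 1 to 1.37 without shThoc1 replicate 2. Signs turned for Flt4 at −0.027 without scaling, and with voom quality weights for Emcn at 0.69, Robo4 at 1.10 and Aplnr at 1.22. With 1 library left out, log2 fold changes ranged from −0.51 to 0.46 for Flt4, −1.09 to 0.67 for Emcn, −0.80 to 0.91 for Robo4, −0.998 to 1.08 for Aplnr, −0.24 to 1.09 for Cdh5, −0.19 to 0.83 for Esam, −0.44 to 1.05 for Cd93, −0.059 to 0.98 for Tbx2, −0.16 to 0.92 for Gja5, −0.13 to 0.90 for Lyve1 and −0.091 to 0.35 for Selp. Class medians with 1 library left out were lowest without shThoc1 replicate 1 and highest without shThoc1 replicate 2 in 6 classes, at 0.31 to 1.41 for pan-endothelial, 0.53 to 1.58 for aerocyte, 0.25 to 1.20 for general capillary, 0.49 to 1.35 for arterial, 0.93 to 1.62 for venous and activated and 1.22 to 2.11 for several vessel types. For lymphatic genes they ran from 0.07 without shThoc1 replicate 3 to 0.77 without shControl replicate 1. With other scalings, other filters or shThoc1 replicates 2 and 3 summed, edgeR called 0 members and 4 or 5 were below 0. The causes were not tested. With 3 libraries a group and a coefficient of biological variation of 0.48 across genes, no member passed edgeR's test with all 6 libraries.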

Other observations

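Further vessel-type genes that were not members gave 10 of 20 above 0 and 10 below 0, with a median log2 fold change of −0.01 and no call in edgeR. Ccl21a, a chemokine of lymphatic vessels and lymphoid stroma, had 83.7, 966 and 97.0 CPM in shThoc1 replicates 1, 2 and 3, against 58.3, 17.5 and 24.1 CPM in shControl replicates 1, 2 and 3, a log2 fold change of 3.52 (SE 1.16, adjusted p = 0.304). It was highest in shThoc1 replicate 2, the library with the highest T and B cell levels. Ackr1, a chemokine receptor of venules and red cells, had 2.502, 6.519 and 1.932 CPM in shThoc1 lungs, against 1.47, 0.239 and 0.659 CPM in shControl lungs. Prox1, the master factor of lymphatic identity that is also expressed in neuroendocrine cells, had 4.38, 49.1 and 4.31 CPM in shThoc1 lungs, against 171, 8.52 and 148 CPM in shControl lungs. It was highest in shControl replicates 1 and 3, the libraries with the highest neuroendocrine levels, and was chosen for mention after its values were seen, as were Slc6a2 and Fibin. Slc6a2, a noradrenaline transporter, had 234, 0.790 and 291 CPM in shThoc1 lungs, against 33.9, 3.43 and 56.0 CPM in shControl lungs. Fibin had 155, 8.89 and 153 CPM in shThoc1 lungs, against 32.6, 60.5 and 52.7 CPM in shControl lungs. For both genes shThoc1 replicates 1 and 3 were above every shControl library and replicate 2 was below every one, the order seen for 35 of the 47 members. That order held for 4 of the 20 genes of this list, a larger share than the 10.1% of all genes tested. Replicate 2 of shThoc1 was the lowest library for 9 of the 20, against 24.6% of all genes tested.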
